A study of Homo sapiens with 3 samples.

Results

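The matrix metalloproteinases (MMPs), their tissue inhibitors (TIMPs) and the ADAMTS proteases were examined for ETS1 binding in SCC25, an established head and neck squamous cell carcinoma line that came from a tongue tumour. Members were the protein-coding genes of GENCODE 44 named MMP plus a number, TIMP1 to TIMP4, and ADAMTS plus a number, which gave 46 of 19856 protein-coding genes (23 MMP, 4 TIMP and 19 ADAMTS genes). ETS1 was immunoprecipitated from untreated SCC25 cells and the bound DNA was sequenced (ChIP-Seq) in 3 samples, for which antibody C20 was used in 2 and antibody 501A in 1. No other cell line and no sample with reduced ETS1 was analysed here, and all 3 samples came from the same line. The deposited file is 1 consensus list of 26970 peak positions on hg19 that pools the samples, with no height, score, read count or value per sample. Consequently the antibodies could not be compared, no spread between replicates was available and no test of a difference could be made. The study's methods give a range of sequenced reads for its libraries, but the list carries no depth for a single sample. Peak positions hold no expression, so that neither the activity of these genes nor the identity of the cells could be checked against marker genes. Intervals given with shares are 95% Wilson confidence intervals, and they cover counting error only.

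MMPs are zinc endopeptidases that are made as inactive proenzymes and cleave collagens, laminins and other proteins of the extracellular matrix. Most are secreted, whereas the membrane-type enzymes stay on the cell surface. TIMPs bind the active site of MMPs and block it. ADAMTS proteases are secreted enzymes with thrombospondin repeats that cleave proteoglycans, procollagens and von Willebrand factor. ETS1 is a transcription factor that recognises a GGAA or GGAT core, and the promoters of collagenase and stromelysin genes are textbook examples in which such a core works together with a site for AP-1 (the Fos and Jun factors).

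The sequences just before the transcription start site (TSS) show what these promoters offer to ETS1 and AP-1. The 150 bases upstream of the canonical TSS are shown 5′ to 3′ on the strand of the gene, from hg19, for MMP7, MMP10 and MMP20 as examples. MMP20 was added after its sequence had been searched, because it holds the same AP-1 letters as the others. Capitals mark matches on either strand to the AP-1 site TGANTCA and, for ETS factors, to AGGAAG or AGGAAA and to CCGGAA.
MMP10, chr11:102651360-102651509, minus strand: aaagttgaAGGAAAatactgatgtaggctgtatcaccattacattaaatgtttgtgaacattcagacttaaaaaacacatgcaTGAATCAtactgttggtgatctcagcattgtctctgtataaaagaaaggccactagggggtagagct
MMP7, chr11:102401479-102401628, minus strand: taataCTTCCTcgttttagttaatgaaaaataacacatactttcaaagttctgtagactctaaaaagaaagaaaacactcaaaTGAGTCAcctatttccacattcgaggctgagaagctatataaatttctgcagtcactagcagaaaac
MMP20, chr11:102496064-102496213, minus strand: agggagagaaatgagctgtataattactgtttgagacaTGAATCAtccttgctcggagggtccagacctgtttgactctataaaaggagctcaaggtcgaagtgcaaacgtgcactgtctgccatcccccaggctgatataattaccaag

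An AP-1 match was present within 150 bases of the TSS in 10 of the 46 members, or 21.7%, and in 2.83% of all protein-coding genes. Among genes with a CpG-poor promoter the shares were 47.6% (10 of 21 members) and 5.66%. A promoter was called CpG-rich here when the 1000 bases around the TSS had at least 50% GC and an observed to expected CpG ratio of at least 0.6, and CpG-poor otherwise. The match began 67 bases upstream of the TSS in MMP7 and MMP10, 84 bases upstream in ADAMTS12 and 112 in MMP20. The other 6 genes with a match were MMP1, MMP3, MMP9, MMP12, MMP13 and MMP19. Most of the 10 lie in 1 cluster of related MMP genes on chromosome 11, where 7 of 9 genes had the match (77.8%). Outside that cluster only MMP9, MMP19 and ADAMTS12 had it, and no TIMP gene did. The share of 21.7% is therefore not a trait of all 3 families. ETS matches of the form AGGAAG or AGGAAA were no more common in the members than elsewhere, with 12 of 46 (26.1%) against 27.6% of all protein-coding genes. MMP1, MMP7 and MMP10 held both kinds of match, which is 3 of 46 members (6.52%) and 1.11% of all protein-coding genes. Among genes with a CpG-poor promoter the shares were 14.3% (3 of 21 members) and 2.57%. CCGGAA was in none of the 46 upstream windows, which allows a share of up to 6.52% by 3 counts, and in 15.2% of all windows. It was in 6.44% of the windows of all CpG-poor genes. Such words are short, so that a match describes the sequence and does not identify a bound site, and the absence of one says only that these letters are not in the window.

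Most of the members with the AP-1 match had no ETS1 peak at it. Of the 10 members with the match, 3 had an ETS1 peak within 500 bp of the TSS (30.0%, interval 10.8 to 60.3%), namely MMP7, MMP9 and MMP19, and the share among all 393 CpG-poor genes with the match was 17.3%. In MMP9 and MMP19 the peak covered all 150 upstream bases. In MMP7 it covered only the 60 bases next to the TSS and ended at the base that adjoins the AP-1 match. In the other 7 members with the match, namely MMP1, MMP3, MMP10, MMP12, MMP13, MMP20 and ADAMTS12, no base of the upstream window lay under a peak.

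ETS1 peaks were next assigned to the members by position. The promoter window ran from 5 kb upstream to 1 kb downstream of the canonical TSS, and a peak was counted where its midpoint lay. Of the 46 members, 16 had at least 1 peak in the promoter window (34.8%, interval 22.7 to 49.2%), whereas 56.0% of all protein-coding genes did. The count was 8 of 23 for MMP genes (34.8%, 18.8 to 55.1%), 2 of 4 for TIMP genes and 6 of 19 for ADAMTS genes (31.6%, 15.4 to 54.0%). Within 50 kb of the TSS 30 members had a peak (65.2%, 50.8 to 77.3%), against 77.8% of all protein-coding genes, and these were 16 MMP, 4 TIMP and 10 ADAMTS genes. The MMP and ADAMTS genes and the 46 members together thus had a smaller share of genes with a peak than protein-coding genes at large in both regions, by counts that carry no test. The 4 TIMP genes did not follow this within 50 kb, where all had a peak. The median distance from the TSS to the nearest peak was 13794 bp for MMP genes, 4599 bp for TIMP genes and 41722 bp for ADAMTS genes, against 659 bp for all protein-coding genes.

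**Figure D1:**
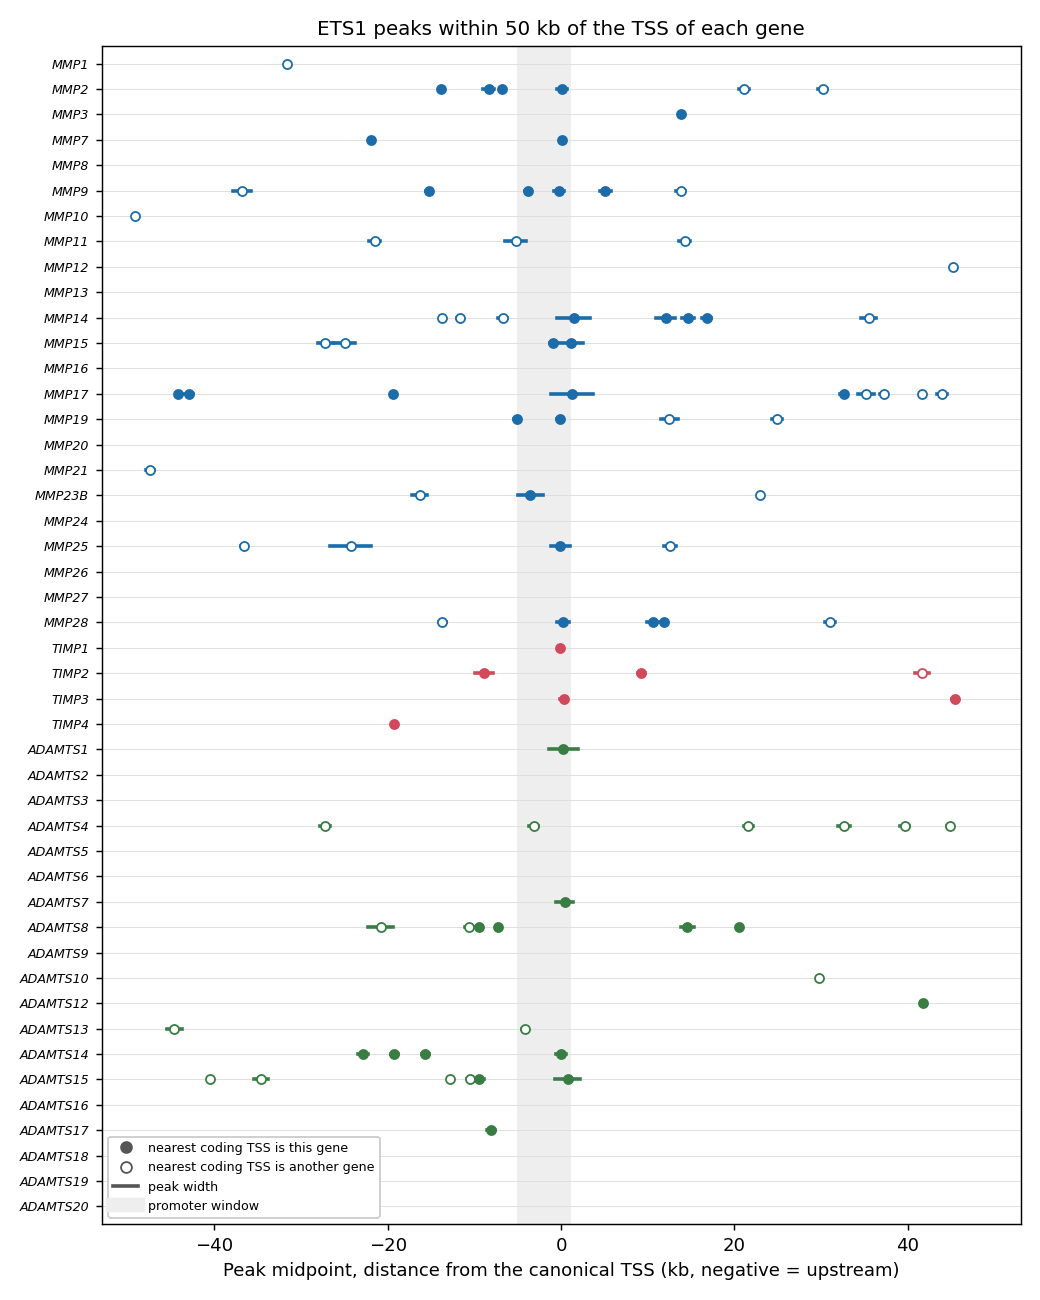
Distance of each consensus ETS1 peak (midpoint, kb, with the peak's width as a bar) from the canonical TSS of the 46 members, coloured by family, with the promoter window in grey and open circles for peaks that lie nearest to the TSS of another protein-coding gene. Of the 46 rows 16 are empty. Peaks are most numerous around MMP17 (9) and MMP14 (8), followed by MMP2, MMP9, ADAMTS4, ADAMTS8 and ADAMTS15 with 6 each.

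The members were next divided by the CpG content of their promoters. A CpG-rich promoter was found in 25 members (54.3%), which were 8 MMP, 2 TIMP and 15 ADAMTS genes, and in 65.1% of all protein-coding genes. Among these 25, 9 had a promoter window peak (36.0%, interval 20.2 to 55.5%), whereas 74.2% of all CpG-rich genes did. For CpG-rich ADAMTS genes the count was 4 of 15 (26.7%, 10.9 to 52.0%). Among the 21 members with a CpG-poor promoter 7 had a promoter window peak (33.3%, 17.2 to 54.6%), against 21.9% of all CpG-poor genes. The members with CpG-poor promoters therefore lay somewhat above their background, within the interval, and those with CpG-rich promoters lay below it. Leaving aside the wider window, a peak midpoint within 500 bp of the TSS was found in 11 members (23.9%, 13.9 to 37.9%) and in 46.8% of all protein-coding genes. These were 7 of the 25 CpG-rich members (28.0%, against 64.9%) and 4 of the 21 CpG-poor ones (19.0%, against 13.0%).

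**Figure D2:**
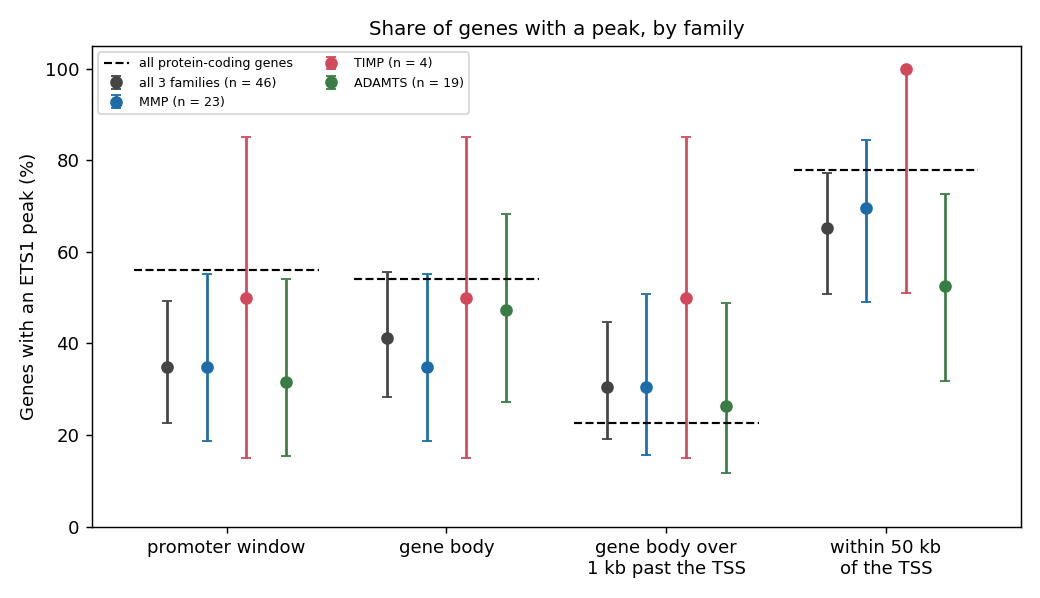
Percent of genes with at least 1 consensus ETS1 peak (y axis) in the promoter window, in the gene body, in the gene body more than 1 kb past the TSS and within 50 kb of the TSS, for all members and for each family, with 95% Wilson intervals as error bars. Dashed lines give the share of all protein-coding genes, which is above the 46 members for the promoter window (56.0% against 34.8%) and below them for the gene body past 1 kb (22.6% against 30.4%).

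The gelatinases MMP2 and MMP9, which digest denatured collagen and the collagen of basement membranes, both had a peak over the TSS. At MMP9 a peak of 1112 bp (chr20:44636786-44637897) was centred 206 bp upstream of the TSS, and a further peak of 717 bp (chr20:44633416-44634132) was centred 3773 bp upstream. Another 4 peaks lay within 50 kb, at 36848 and 15288 bp upstream, at 5112 bp downstream in intron 10 and at 13799 bp downstream, of which the farthest upstream was 143 bp from the TSS of ZNF335. MMP9 was the only member with 2 peaks in its promoter window. At MMP2 a peak of 1115 bp (chr16:55512646-55513760) was centred 93 bp downstream of the TSS, and 5 others lay within 50 kb, 3 of them between 6817 and 13863 bp upstream of the canonical TSS, inside the span of longer MMP2 transcripts. The peak 30188 bp downstream was 314 bp from the TSS of LPCAT2.

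The collagenases MMP1, MMP8 and MMP13, which cleave fibrillar collagen, had no peak in the promoter window (0 of 3, interval 0 to 56.1%) and none in the gene. Stromelysins MMP3, MMP10 and MMP11 had none there either (0 of 3, 0 to 56.1%). These intervals reach the promoter window share of all protein-coding genes, 56.0%. Except for MMP11 these genes have CpG-poor promoters, and 21.9% of all CpG-poor genes had a promoter window peak. The nearest peak to the canonical MMP11 TSS was 5224 bp upstream and reached into the promoter window, but it was 347 bp from the TSS of CHCHD10. This peak also covered the first annotated base of the MMP11 gene. With every annotated TSS counted, MMP11 had a promoter window peak. The matrilysin MMP7, a small protease of epithelia, had a peak of 275 bp over its TSS, whereas MMP26, the other matrilysin, had its nearest peak 311 kb away.

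Membrane-type MMPs had wide peaks at the TSS that the promoter window only partly counted. MMP15 and MMP25 had a peak midpoint in the window, and MMP14 and MMP17 had one just outside it. At MMP14, the activator of pro-MMP2 on the cell surface, a peak of 3707 bp (chr14:23305377-23309083) covered the TSS and had its midpoint 1436 bp downstream in intron 1. That peak stood at position 560 of the 26970 in the list, the earliest of all peaks over a member TSS. At MMP17 a peak of 4952 bp (chr12:132311721-132316672) also covered the TSS, with its midpoint 1258 bp downstream. At MMP15 a peak of 759 bp (chr16:58058374-58059132) lay 905 bp upstream and a second of 2858 bp, centred 1122 bp downstream, covered the TSS. At MMP25 a peak of 2293 bp (chr16:3095342-3097634) was centred 74 bp upstream. All 4 of these genes therefore had a peak over the TSS, and MMP16 and MMP24 had none within 50 kb, their nearest peaks being 1430 and 51.2 kb away. Around MMP14 8 peaks lay within 50 kb, and around MMP17 there were 9, the largest number for any member, against a median of 1 for the members and 2 for all protein-coding genes. Only 4 of these peaks were nearest to the MMP14 TSS and 5 to the MMP17 TSS. The others around MMP14 were nearest to MRPL52 or LRP10, and those around MMP17 to ULK1.

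Of the other MMP genes, MMP19, MMP23B and MMP28 had a promoter window peak. The MMP19 peak of 654 bp (chr12:56236533-56237186) was centred 139 bp upstream of the TSS, and a second peak lay 5098 bp upstream, just outside the window. The MMP28 peak of 1414 bp (chr17:34121710-34123123) was centred 229 bp downstream, and 3 further peaks lay in the gene. The MMP23B peak of 2889 bp (chr1:1562551-1565439) was centred 3557 bp upstream, in a coding exon of the neighbouring gene MIB2. MMP23B and ADAMTS7 have near-identical copies elsewhere in the genome, and since reads with several loci had been discarded, fewer reads could count there. The effect of this on their peaks was not tested.

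Among the inhibitors, TIMP1 and TIMP3 had a peak over the TSS, and all 4 TIMP genes had a peak within 50 kb. The TIMP1 peak of 622 bp (chrX:47441441-47442062) was centred 84 bp upstream of the TSS. The TIMP3 peak of 827 bp (chr22:33197572-33198398) was centred 294 bp downstream. TIMP2 had peaks 8904 bp upstream and 9272 and 41635 bp downstream, the last 2 in intron 1, and TIMP4 had 1 peak, 19284 bp upstream. TIMP1, TIMP3 and TIMP4 lie inside the synapsin genes SYN1, SYN3 and SYN2 on the opposite strand, so that a peak over these genes was also a peak within a synapsin gene, and position alone cannot assign it. In each case the nearest protein-coding TSS was that of the TIMP gene.

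The ADAMTS genes with a promoter window peak fell into those with a peak at their own TSS and those whose peak belonged by distance to a neighbour. ADAMTS1, a proteoglycan-cleaving enzyme, lay under a peak of 3239 bp (chr21:28215835-28219073), the widest in any promoter window of the members, centred 274 bp downstream of the TSS. ADAMTS5, a major aggrecanase whose TSS is 122 kb from that of ADAMTS1, had no peak within 50 kb, and its nearest peak was the same one. ADAMTS15 had a peak of 2917 bp (chr11:130317851-130320767) over its TSS, centred 769 bp downstream. The TSSs of ADAMTS15 and ADAMTS8 are 20036 bp apart, and 6 peaks lay within 50 kb of both. The cartilage oligomeric matrix protein (COMP) protease ADAMTS7 had a peak of 1960 bp (chr15:79102410-79104369), centred 417 bp downstream, and the procollagen N-proteinase ADAMTS14 one of 1149 bp (chr10:72431641-72432789), centred 47 bp upstream. ADAMTS4, another aggrecanase, was counted with a peak in its window that is not described further. In contrast to the peaks at a gene's own TSS, the peak assigned to ADAMTS13, the von Willebrand factor protease, was 4156 bp upstream and 201 bp from the TSS of REXO4 (chr9:136282947-136283715). Counting only peaks whose nearest protein-coding TSS was that of the gene left 14 members with a promoter window peak, against 48.6% of all protein-coding genes.

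The sequences at 3 of these promoter window peaks are given next, because they are among those that stand nearest to the start of the list. The peaks at MMP23B and MMP25 also stand there and are not printed because a UTR is annotated over the centre, and 1 other is not reported here. Each is up to 300 bases at the midpoint of the peak on the strand of the member, from hg19, shortened where a UTR is annotated, with the same letters in capitals.
ADAMTS13 promoter window peak, chr9:136283217-136283480, plus strand: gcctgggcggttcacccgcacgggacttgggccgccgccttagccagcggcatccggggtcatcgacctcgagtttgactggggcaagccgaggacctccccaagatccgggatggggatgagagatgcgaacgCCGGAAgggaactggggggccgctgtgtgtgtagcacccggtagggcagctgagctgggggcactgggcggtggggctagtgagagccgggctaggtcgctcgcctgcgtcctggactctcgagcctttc
MMP9 promoter window peak, chr20:44633624-44633923, plus strand: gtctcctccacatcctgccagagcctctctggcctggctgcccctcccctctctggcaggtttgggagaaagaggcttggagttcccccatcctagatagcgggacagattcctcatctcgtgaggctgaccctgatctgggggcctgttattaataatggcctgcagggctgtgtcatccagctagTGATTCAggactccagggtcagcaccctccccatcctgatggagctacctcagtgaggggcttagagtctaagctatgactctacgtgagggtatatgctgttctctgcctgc
TIMP1 promoter window peak, chrX:47441601-47441806, plus strand: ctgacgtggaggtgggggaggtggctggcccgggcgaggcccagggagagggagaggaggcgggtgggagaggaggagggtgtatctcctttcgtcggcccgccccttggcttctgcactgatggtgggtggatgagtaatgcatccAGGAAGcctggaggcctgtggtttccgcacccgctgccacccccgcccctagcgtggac

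The peak shared by ADAMTS13 and REXO4 held CCGGAA, the form of the ETS motif that is common at CpG-rich promoters, and the MMP9 peak at -3773 bp held an AP-1 match and no AGGAAG or AGGAAA in these 300 bases. The TIMP1 sequence held AGGAAG.

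A peak covered the TSS of 15 members (32.6%, interval 20.9 to 47.0%), against 52.3% of all protein-coding genes. They were MMP2, MMP7, MMP9, MMP14, MMP15, MMP17, MMP19, MMP25, MMP28, TIMP1, TIMP3, ADAMTS1, ADAMTS7, ADAMTS14 and ADAMTS15. The meaning of the order of the list is not stated in the sources used here. None of the 11 peaks centred within 500 bp of a member TSS was among the first 13485 positions, where 63.1% of the 8293 peaks within 500 bp of any protein-coding TSS stood (interval 62.0 to 64.1%). The count of 0 of 11 allows a share of up to 27.3% by 3 counts. Their positions began at 15384, for TIMP1, and their median was 19980, whereas that of all 8293 peaks was 10210. This held for the 7 such peaks at CpG-rich promoters (0 of 7, against 64.0% of all such peaks) and for the 4 at CpG-poor ones (0 of 4, against 54.6%), and with so few peaks neither limit is tight. Their median width, 1115 bp, was not far from the 1288 bp of all peaks within 500 bp of a TSS. Farther from the TSS the members did not stand apart, since 20 of the 45 peaks that were nearest to a member and over 500 bp away stood among the first 13485 (44.4%), against 44.2% of all peaks over 500 bp from a TSS.

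**Figure D3:**
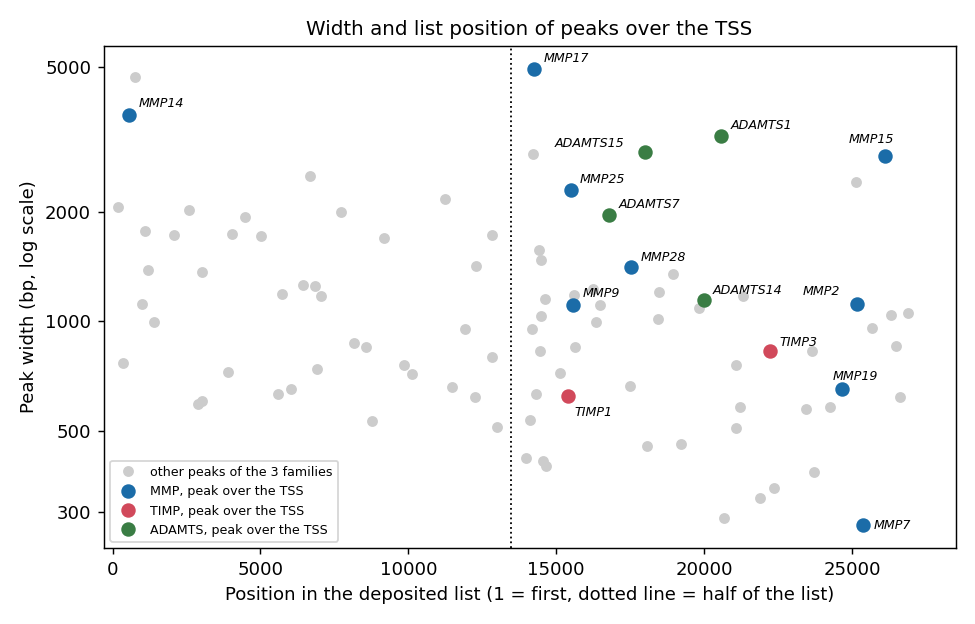
Width (y axis, bp, log scale) of the 96 peaks of the members against their position in the deposited list (x axis), with the 15 peaks over a TSS coloured by family and named, and the dotted line at position 13485. MMP14 is the only named gene to the left of the line, at position 560, and the other 14 lie to the right.

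In the gene body, as annotated from the first to the last base of the gene, 19 members had a peak (41.3%, interval 28.3 to 55.7%), against 54.1% of all protein-coding genes. Peaks in the first 1 kb make up part of this count, and more of it for protein-coding genes at large than for the members. When only the body more than 1 kb past the TSS was counted, 14 members had a peak (30.4%, 19.1 to 44.8%) and 22.6% of all protein-coding genes did, so that the members then lay above the background, although their interval includes it. This count also goes by the midpoint. MMP15 and MMP17 are therefore among the 14 only through a wide peak that also covers the TSS. How far such peaks add to the share of all protein-coding genes was not counted. Gene length differed greatly between the families, with a median of 14.7 kb for MMP, 33.6 kb for TIMP and 172 kb for ADAMTS genes and 27.6 kb for all protein-coding genes. Among genes of at least 100 kb, 3 of 10 ADAMTS genes had a body peak more than 1 kb past the TSS (30.0%, 10.8 to 60.3%), against 41.7% of all such genes. Those 3 were ADAMTS12, ADAMTS16 and ADAMTS17.

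ADAMTS17 was the exception among the long ADAMTS genes. Its body of 371 kb held 8 peaks, all in introns 7 to 18 between 139947 and 342890 bp from the TSS, while none lay in its promoter window. Among all protein-coding genes of at least 100 kb, 4.17% had 8 or more peaks in the body. That set was not matched to the length of ADAMTS17, and longer genes offer more positions for a peak. ADAMTS16 had 2 peaks, both in intron 18, and ADAMTS12 had 1, in intron 2. The other 7 ADAMTS genes of at least 100 kb, which include the procollagen N-proteinases ADAMTS2 and ADAMTS3, had no peak in the body.

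No peak lay within 50 kb of the TSS in 16 members, that is 34.8% against 22.2% of all protein-coding genes. These were MMP8, MMP13, MMP16, MMP20, MMP24, MMP26, MMP27, ADAMTS2, ADAMTS3, ADAMTS5, ADAMTS6, ADAMTS9, ADAMTS16, ADAMTS18, ADAMTS19 and ADAMTS20. Their nearest peaks were 51.2 to 1430 kb away, with a median of 166 kb, and all except ADAMTS16 also had none in the body.

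The cluster of 9 MMP genes on chromosome 11 (MMP7, MMP20, MMP27, MMP8, MMP10, MMP1, MMP3, MMP12 and MMP13, chr11:102391239-102826461) was examined as a whole. All 9 genes are read from the same strand and all 9 promoters are CpG-poor, with 33.4 to 42.5% GC against a median of 61.3% for all protein-coding genes. In its 435 kb there were 3 ETS1 peaks (exact Poisson interval 0.619 to 8.77, counting error only). This is 6.89 per Mb (1.42 to 20.1), against 11.9 per Mb on chromosome 11 and 9.43 per Mb in the nuclear genome outside sequence gaps. The stretch of the same length on the MMP7 side held 8 peaks and 4 protein-coding TSSs, and that on the MMP13 side held 2 peaks and 2 TSSs. Across the genome, gap-free tiles of this length held a median of 2 peaks, and 62.3% held 3 or fewer. Among the 527 tiles with at least 9 protein-coding TSSs the median was 13 peaks, and 46 tiles (8.73%) held 3 or fewer. The cluster was thus like other sequence of its length, and it held fewer peaks than most of the 527 tiles. Those tiles had no upper limit on the number of TSSs and were not matched for CpG content. Whether the cluster was poor in peaks for genes of its kind was therefore not tested with them.

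The 3 peaks were narrow. Their widths were 275, 327 and 400 bp, against a median of 969 bp for all peaks. In the same order they stood at positions 25374, 21901 and 14652 of the list, so that none was among the first 13485. The last of these was earlier than the median position of all peaks over 500 bp from a TSS, which was 15032. The first covered the TSS of MMP7 and part of its first coding exon. The second was 21.9 kb upstream of MMP7 and 72.7 kb past the TSS of MMP20, with no gene of the cluster over it. The last lay 5986 bp past the 3′ end of MMP3, 13.8 kb from the TSS of MMP3 and 31.7 kb upstream of the TSS of MMP1. It was the only peak within 50 kb of the TSSs of MMP1, MMP3, MMP10 and MMP12. These 3 sequences are shown because they are the only ones in the cluster at which ETS1 was found. They are given on the minus strand, from which the genes are read, as up to 300 bases at the midpoint, and the MMP7 peak is shortened by its UTR.
Peak at the MMP7 TSS, chr11:102401264-102401431, minus strand: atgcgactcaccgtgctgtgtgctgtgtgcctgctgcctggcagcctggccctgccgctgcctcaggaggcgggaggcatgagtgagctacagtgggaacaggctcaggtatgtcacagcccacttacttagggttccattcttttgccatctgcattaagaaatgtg
Peak upstream of MMP7, chr11:102423225-102423524, minus strand: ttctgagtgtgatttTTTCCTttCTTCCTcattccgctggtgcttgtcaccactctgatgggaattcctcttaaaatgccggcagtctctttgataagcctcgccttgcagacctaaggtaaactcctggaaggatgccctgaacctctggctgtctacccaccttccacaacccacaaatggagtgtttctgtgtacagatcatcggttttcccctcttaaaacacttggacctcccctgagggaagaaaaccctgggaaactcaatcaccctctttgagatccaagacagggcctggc
Peak beyond MMP3, chr11:102700396-102700695, minus strand: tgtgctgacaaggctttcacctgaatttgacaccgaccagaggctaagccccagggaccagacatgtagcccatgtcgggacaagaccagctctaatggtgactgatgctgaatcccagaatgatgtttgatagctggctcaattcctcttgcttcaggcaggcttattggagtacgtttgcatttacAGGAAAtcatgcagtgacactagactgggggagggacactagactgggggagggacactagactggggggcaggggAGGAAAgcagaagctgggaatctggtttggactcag

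The peaks upstream of MMP7 and beyond MMP3 each held 2 AGGAAG or AGGAAA matches and no AP-1 match, and the shortened MMP7 sequence held neither. Wide gaps without a peak lay on both sides of the peak beyond MMP3. The first, of 277 kb, held the TSSs of MMP20, MMP27, MMP8, MMP10 and MMP1, and was longer than 93.0% of the gaps between neighbouring peaks in the genome. The other, of 261 kb, held those of MMP3, MMP12 and MMP13 and was longer than 92.6%. The median gap was 25.8 kb. Of the 9 upstream windows in the cluster 7 held the AP-1 letters shown at the start (77.8%), against 5.66% of those of all CpG-poor genes. A peak within 500 bp of the TSS was found in 1 of the 9 genes (11.1%, interval 1.99 to 43.5%), close to the 13.0% of all CpG-poor genes.

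**Figure D4:**
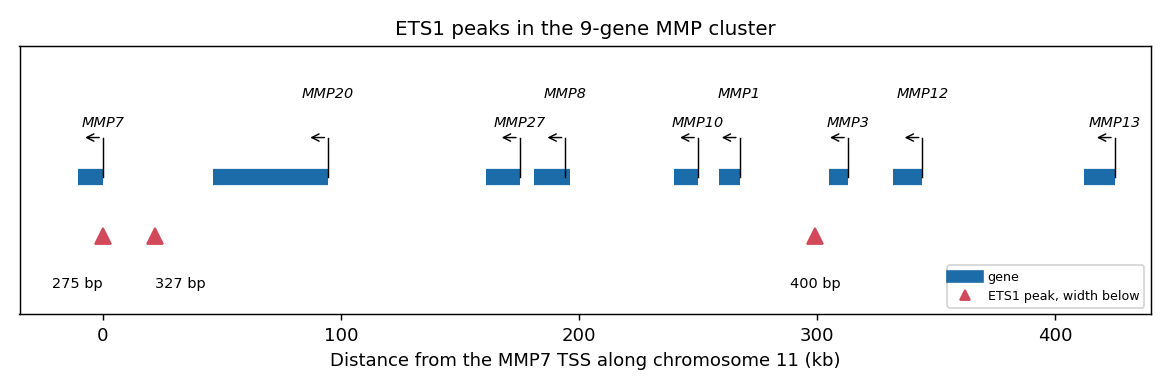
Map of the MMP cluster on chromosome 11 (x axis, kb from the MMP7 TSS) with genes as blue bars, arrows at each TSS and the 3 consensus ETS1 peaks as red triangles with their widths. The triangles sit at the MMP7 TSS, 21.9 kb upstream of it, and between MMP1 and MMP3, and no other TSS of the cluster has one.

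The sequence around the midpoints of the peaks of the members was like that around other peaks of the same kind. The members had 96 distinct peaks within 50 kb of the TSS or in the body, with a median width of 1008 bp. In the 600 bp around the midpoint, AGGAAG or AGGAAA was found in 77 of 96 (80.2%, interval 71.1 to 86.9%), against 79.2% of all 26961 nuclear peaks. The AP-1 site TGANTCA was found in 33 of 96 (34.4%, 25.6 to 44.3%), against 30.9%. CCGGAA was in 26 of 96 (27.1%, 19.2 to 36.7%), against 26.0%. The contrast was in the promoter window, where 6 of the 17 peaks of the members had an AP-1 match in the 600 bp (35.3%, 17.3 to 58.7%). Of the 10446 promoter window peaks of all protein-coding genes 9.60% did (9.05 to 10.2%). These 6 were 2 peaks at MMP9 and 1 each at MMP7, MMP19, ADAMTS7 and TIMP1. All 6 had AGGAAG or AGGAAA as well in the 600 bp. The window is wider than narrow peaks, and at MMP7, with a peak of 275 bp, the AP-1 match lay just outside the peak. In the 200 bp around the midpoint the AP-1 match remained in 2 of 17 (11.8%, 3.29 to 34.3%), against 3.63%, so that the interval then includes the background, and none of the 17 held both kinds of match (0 to 18.4%), against 1.86%. Except for ADAMTS7, these genes have CpG-poor promoters. Outside promoter windows the AP-1 share was 46.3% (25 of 54) for the members and 44.4% for all peaks.

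Many of the peaks near the members were nearest to the TSS of another gene, which was also so for protein-coding genes at large. The members had a mean of 2.07 peaks within 50 kb, against 2.53 for all protein-coding genes. Counting only peaks nearest to the gene's own TSS, the means were 1.07 and 1.01. A peak within 50 kb that was nearest to their own TSS was found in 22 members, against 59.3% of all protein-coding genes. Of the 86 distinct peaks within 50 kb of a member TSS, 49 had a member as the nearest protein-coding TSS. The other 37 were nearest to another gene, and 21 of those were within 500 bp of its TSS.

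Further genes of the same biology were counted for comparison. Of 20 such genes 12 had a promoter window peak (60.0%), close to the 56.0% of all protein-coding genes. These were 8 of the 9 ADAM genes examined, which encode membrane-anchored relatives of the ADAMTS proteases that shed cell-surface proteins. ADAM9, ADAM10, ADAM12, ADAM15, ADAM17, ADAM19 and ADAM28 had a peak within 500 bp of the TSS, ADAM8 had 2 peaks in the window, the nearer 879 bp downstream of the TSS, and ADAM33 had none. The other 4 were of the 7 ADAMTS-like genes, which lack the protease domain, namely ADAMTSL2, ADAMTSL5, THSD4 and PAPLN. The 4 regulators of MMP activity examined, the membrane inhibitor RECK, the MMP inducer BSG, the proenzyme convertase FURIN and the plasma inhibitor A2M, had no peak midpoint in the window. The nearest peaks were 1267 bp downstream of the TSS at FURIN, 3286 bp downstream at BSG, 50913 bp away at A2M and 115061 bp away at RECK.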

How the data were processed

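The authors mapped ChIP-Seq reads of 3 samples to hg19 with Bowtie 1.1.1, discarding reads with several loci, pooled alignments with SAMtools 1.3, called peaks with MACS2 against merged input at low stringency, and kept those that passed IDR, a test of reproducible rank between replicates. Per the file, what they deposited is 1 pooled list of chromosome, start and end, so the only values are positions and widths, with no unit of signal. Starts were counted from 0 and are printed from 1.

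Genes came from GENCODE 44 on GRCh37, whose nuclear sequence is that of hg19, with 1 canonical TSS per gene. The members and gene lists were chosen with earlier results of these data known. Named were all members with a promoter window peak, all without a peak within 50 kb and all of the chromosome 11 cluster; the comparison genes and roles followed preset lists, and other genes were named as neighbours of peaks. The counts of peaks over the TSS, of list positions and by CpG content were added after the data had been seen. No test was made, because the list holds no value per sample. Some upstream sequences and 1 peak are not reported here. RefSeq promoter tables, on another build, were not used here. The code that counts peaks in promoter windows was checked on simulated data, where 1000 of 1000 planted genes among 19856 were found. The peaks were planted within the same window limits, so this checks the counting and not which gene a peak belongs to. Computation was in Python 3.11.15, with pysam 0.24.0 for sequence, pandas 2.3.3 and numpy 2.4.6 for counts, scipy 1.17.1 for intervals and matplotlib 3.10.9 for figures.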

Additional observations from a re-analysis of the deposited data

How the results depend on the processing

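Of 25 alternative settings, 15 left the count within 1.5 times the value given or the share within its interval, and 10 moved it. With only the first 13485 peaks of the list, 3 members had a promoter window peak (36.4% of all protein-coding genes), 8 a body peak (36.1%) and 18 a peak within 50 kb (62.2%), and the cluster held 0. With only peaks of at least the median width, 10 members had a promoter window peak (43.5%), 18 had a peak within 50 kb (64.0%) and the cluster held 0. Motif shares in 200 bp windows were 44.8% for AGGAAG or AGGAAA, 15.6% for TGANTCA and 11.5% for CCGGAA, as a window with fewer bases holds fewer matches, against 43.9%, 15.1% and 11.8% of all nuclear peaks. The other promoter window definitions gave 11 to 19 members, and the members stayed below all protein-coding genes in each of them. Only the body more than 1 kb past the TSS placed the members above the background (14 of 46). No paired analysis was possible because the list pools the samples, and for the same reason no replicate could be left out. The list gives no height and no depth for a single sample, so that a weak peak below the IDR threshold and an absent one cannot be told apart.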
